A study of Rattus norvegicus with 6 samples.

Results

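Cytosolic ribosomal proteins are the protein parts of the ribosomes that translate nuclear-encoded mRNAs, and their genes were followed here in the vestibular sensory epithelium of rats given streptomycin. The members were the protein-coding rows of the count table whose symbol follows the naming of these proteins (Rpl or Rps with a number, Rplp0 to Rplp2, or Rpsa), leaving out the Rps6k kinases. This rule took 90 rows, and where a symbol was repeated the row with most counts was kept, which left 83 genes of the 32883 in the table. Of these, 51 belong to the large subunit and 32 to the small subunit. The choice rested on names and, for repeated symbols, on summed counts, and not on any difference between groups.

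A cytosolic ribosome joins a small subunit, which reads the mRNA, to a large subunit, which forms the peptide bond. Its proteins are needed in matched amounts, and in mammals many of their mRNAs begin with a C followed by a run of pyrimidines, the 5′ terminal oligopyrimidine (TOP) start, through which mTOR and LARP1 control their translation. Streptomycin is an aminoglycoside antibiotic that binds the bacterial ribosome and is toxic to vestibular hair cells (HCs). Ribosomal protein genes have many processed copies in rodent genomes, so reads from one gene can match several rows.

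Long-Evans rats received either phosphate-buffered saline (Control, n = 3) or streptomycin (STREP, n = 3), injected subcutaneously at 500 mg/kg once a day over 6 weeks, starting at postnatal day 21. In either group 2 animals were male and replicate 3 was a female, and all libraries carried the same batch label. From each animal, 2 utricles and 6 cristae were pooled, and full-length cDNA was made from polyadenylated RNA and amplified by PCR before sequencing. Totals were 48568191 to 59906048 counts in Control and 29333584 to 33744909 in STREP, so every STREP library was the shallower. HC markers (7 of 8 in the table) were present in every library. They summed to 65096 to 67145 normalised counts in Control and 56233 to 66989 in STREP, most of it Otof and Myo6. The median log2 fold change of the 7 markers was -0.15, and 2 were above 0 (Gfi1 and Calb2). Those past the adjusted p were Gfi1, at 1.20 ± 0.21 (DESeq2 adjusted p = 2.37e-06), and Myo7a, at -0.49 ± 0.14 (DESeq2 adjusted p = 0.0162). Over all 16250 genes tested, 3.72% passed. In bulk tissue, fewer cells of a type and less RNA per cell cannot be told apart.

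Ribosomal protein genes took a similar share of the counts in both groups. The share was 1.01%, 1.10% and 1.20% in Control replicates 1 to 3, and 1.05%, 1.13% and 1.34% in STREP replicates 1 to 3. The groups overlapped, and the female had the highest share in each. The means were 1.10% ± 0.0949 (SD, n = 3) in Control and 1.17% ± 0.154 (SD, n = 3) in STREP. Of the 83 genes, 76 had a mean of at least 10 normalised counts (counts divided by the DESeq2 size factor of the library), and 73 of at least 100. Rplp0, which anchors the acidic stalk that recruits elongation factors, alone took 9.65% of the members' counts. Together with Rpl4, Rpl10, Rpl3 and Rpl7, all of the large subunit, it took 32.8%. Counts were not divided by transcript length, so these are shares of reads and not an order of levels.

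The annotated starts of the 5 most counted members with a RefSeq entry, and of the 3 with the highest fold changes among those with at least 100 normalised counts, are printed to show where the TOP feature is present and where it is not. Rpl7 had no entry, so Rpl19 follows in its place. Starts came from RefSeq on the GRCr8 assembly, a different assembly from the one the authors counted on, and 64 of the 83 members had an entry. Each line gives 15 bases on either side of the start (the start is the 16th letter), on the strand of the gene, with capitals marking the nearest run of a C followed by at least 4 letters that are each C or T.
Rplp0: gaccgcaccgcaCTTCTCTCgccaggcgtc
Rpl4: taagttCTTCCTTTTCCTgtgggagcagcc
Rpl10: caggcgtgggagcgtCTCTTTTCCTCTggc
Rpl3: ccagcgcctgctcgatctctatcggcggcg
Rpl19: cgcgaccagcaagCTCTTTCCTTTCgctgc
Rps2: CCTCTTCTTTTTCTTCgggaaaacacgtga
Rpl9: gacgaaggacgttCTCTCTTTgccccatct
Rps18: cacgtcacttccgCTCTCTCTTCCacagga
They lie at chr12:46718376-46718405 (minus strand) for Rplp0, chr8:73566462-73566491 (plus) for Rpl4, chrX:157205835-157205864 (plus) for Rpl10, chr7:113507976-113508005 (minus) for Rpl3, chr10:83519049-83519078 (plus) for Rpl19, chr10:14251833-14251862 (plus) for Rps2, chr14:43247575-43247604 (plus) for Rpl9 and chr20:4933730-4933759 (plus) for Rps18. The start itself was a C followed by 4 letters each C or T, on the strand of the gene and whether or not the run began further upstream, in 21 of the 64 members (32.8%), in 2.63% of 27457 RefSeq promoters and in 3.33% of 60 genes of mitochondrial ribosomal proteins. A run whose first base lay within 10 bases of the start was found in 60.9% of the members and 27.2% of all promoters. Rpl3 had none in this window, and in Rps2 the run lay upstream with the start as its last letter. Annotated starts may be off by some bases, and a match is a description of letters, not of use.

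Rpl9 was higher in STREP than in Control and was the single member that passed the test, a call that was lost once reads counted on its copy were added. No member fell. Of 77 members tested, 1 had an adjusted p under 0.05, and it also passed a fold change of 1.5 (DESeq2, Benjamini-Hochberg over all genes). Across the transcriptome, 3.24% of 16250 genes passed both thresholds and 3.72% the adjusted p at any fold. A count of 1 in 77 is too small to set the members apart from this background. With edgeR's quasi-likelihood test, 0 of 76 members passed, against 1.8% of 14928 genes, and 3 members had an unadjusted p under 0.05, against 11.6% of all genes. DESeq2 also gave 3, against 12.2%.

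The remaining members lay close to 0. Over the 76 members with at least 10 normalised counts, Rpl9 included, the median log2 fold change was 0.15. Over the 14957 such genes in all it was 0.01. Above 0 were 70 of the 76 members, against 50.9% of all genes. The median was 0.16 over the 46 large-subunit members and 0.14 over the 30 small-subunit members. The median standard error of a single member was 0.23, which describes single genes and not the spread of these medians. Apart from Rpl9, Rps18 and Rps2, the other 73 lay between -0.22 (Rpl35a) and 0.40 (Rpl10l), and 72 of the 76 were within 0.3 of 0. After those 3, Rpl23a and Rpl23, both of the large subunit, came next among members with at least 100 normalised counts, at 0.29 ± 0.24 and 0.29 ± 0.22. At the low end, Rpl35a was followed by Rps28 (-0.07 ± 0.28), Rps20 (-0.07 ± 0.29), Rpl7l1 (-0.02 ± 0.18) and Rpl34 (-0.02 ± 0.28). The groups overlapped for each of these, and none passed the test. The normalised counts of 3 tested members did not overlap between groups, all higher in STREP, where 9.12% of all genes tested were higher without overlap and 8.63% lower.

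**Figure D1:**
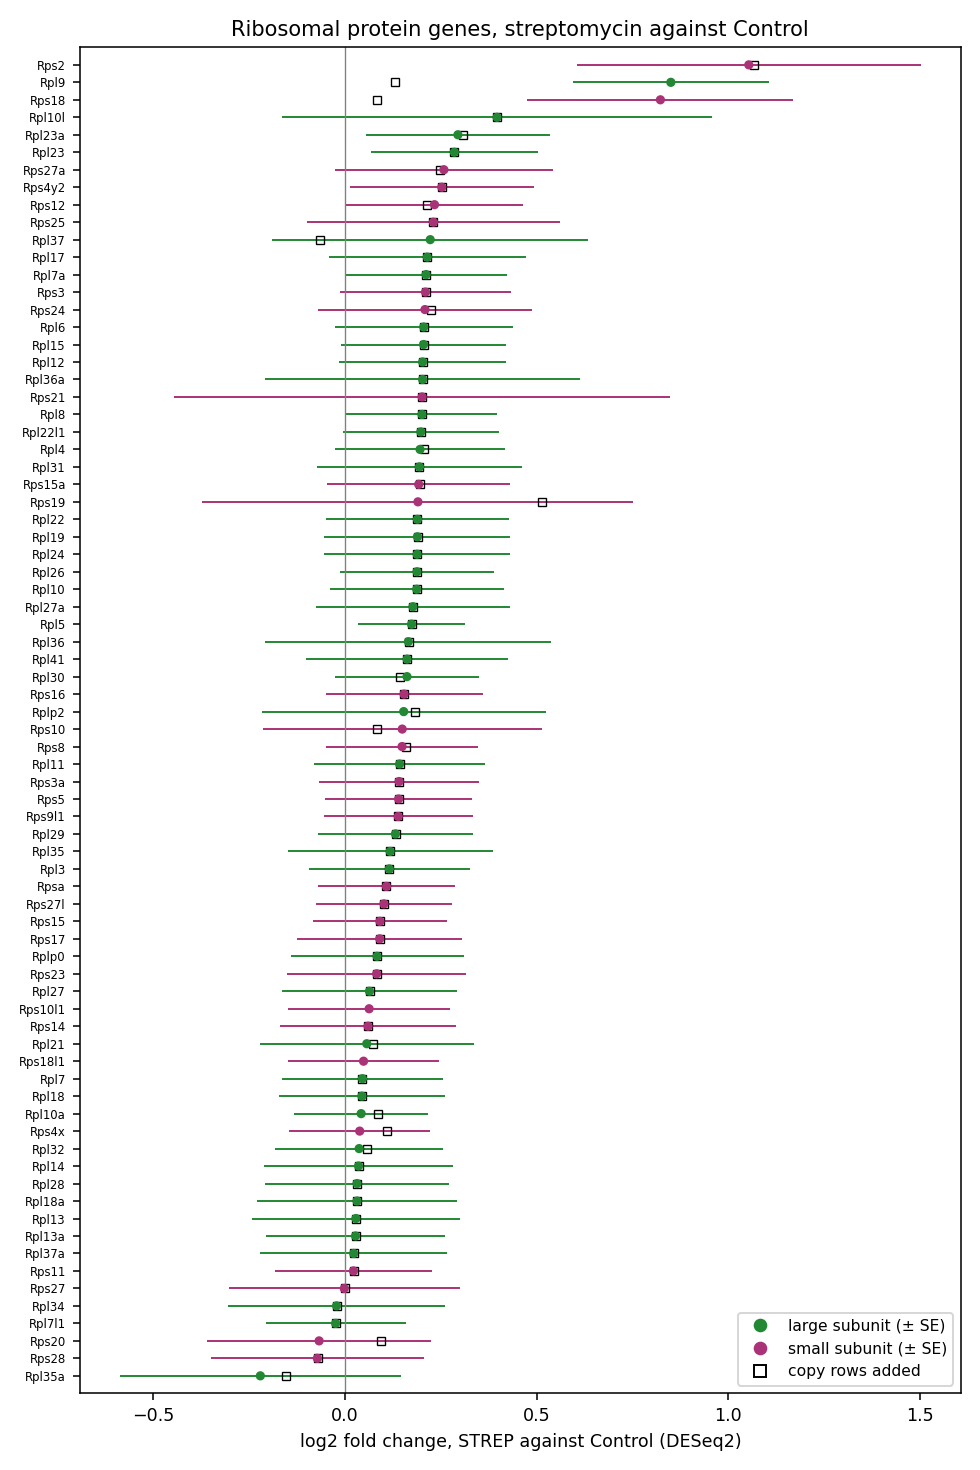
Log2 fold change of each of the 76 ribosomal protein genes (filled points, bars ± SE from DESeq2, 3 Control and 3 STREP animals), with the value after adding the counts of copy rows as open squares, where the gene kept a row of its own. Rps2, Rpl9 and Rps18 lie apart at the top, and the squares of Rpl9 and Rps18 fall back among the other genes whereas that of Rps2 does not.

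Rpl9 (ENSRNOG00000028449), a protein of the large subunit, had 401, 685 and 623 normalised counts in Control replicates 1 to 3 and 806, 999 and 1275 in STREP replicates 1 to 3. All STREP animals were above all Control animals, and the female was the highest in STREP only. Its means were 570 ± 149 (SD, n = 3) in Control and 1026 ± 236 (SD, n = 3) in STREP, which is 0.85 ± 0.25 on the log2 scale (SE) at a DESeq2 adjusted p of 0.0277. With edgeR the adjusted p was 0.124.

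Most reads of the Rpl9 family, however, were counted elsewhere. The row that RefSeq names Rpl9-ps31, a pseudogene, held 64620 counts against 4566 for Rpl9 itself, and its log2 fold change was 0.08 ± 0.17. The Rpl9 row took 4.44%, 6.26% and 5.09% of the family's counts in Control and 8.29%, 8.59% and 9.16% in STREP. The shares did not overlap between groups, while the sum of both rows did. With the rows added together, Rpl9 differed by 0.13 ± 0.17 on the log2 scale (DESeq2 adjusted p = 0.892).

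Rps18 (ENSRNOG00000033152), of the small subunit, showed the same division. Its row held 114, 192 and 184 normalised counts in Control and 232, 230 and 405 in STREP, without overlap, and differed by 0.82 ± 0.35 on the log2 scale (DESeq2 adjusted p = 0.230). Its copy Rps18l1, itself a member by name, had 3956, 4637 and 4724 in Control and 3549, 4259 and 5969 in STREP, overlapping, with a log2 fold change of 0.05 ± 0.20. The Rps18 row took 2.81% to 3.98% of the family's counts in Control and 5.12% to 6.36% in STREP. Added together, the rows differed by 0.08 ± 0.20 (log2).

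Rps2 (ENSRNOG00000014179), a small-subunit protein at the mRNA entry side, differed in its own row and in its copies alike. The row held 8082, 4201 and 10518 normalised counts in Control and 12833, 12533 and 21937 in STREP. Control replicate 2 was the lowest and the STREP female the highest, and the groups did not overlap. The log2 fold change was 1.05 ± 0.45, the highest of the members with at least 100 normalised counts, but Rps2 did not pass the test (DESeq2 adjusted p = 0.241).

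The copy named Rps2-ps43 had 1543, 940 and 1825 normalised counts in Control and 2518, 2530 and 4215 in STREP, and rose by 1.10 ± 0.27 on the log2 scale (DESeq2 adjusted p = 0.00184). A second copy, Rps2-ps6, rose by 1.88 ± 0.43 (DESeq2 adjusted p = 0.00097). The Rps2 row kept 81.2% to 84.7% of the family's counts in every animal of both groups, so its division did not shift between groups as that of Rpl9 and Rps18 did. With sex as a covariate Rps2 passed the test at 1.05 ± 0.21 (DESeq2 adjusted p = 5.89e-05), as did Rpl9, making 2 of 76 members against 4.23% of all genes tested. Among males alone, Rps2 was the only member that passed (1.05 ± 0.24, DESeq2 adjusted p = 0.00143), against 2.8% of all genes tested. Which row a read of this family came from was not tested.

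**Figure D2:**
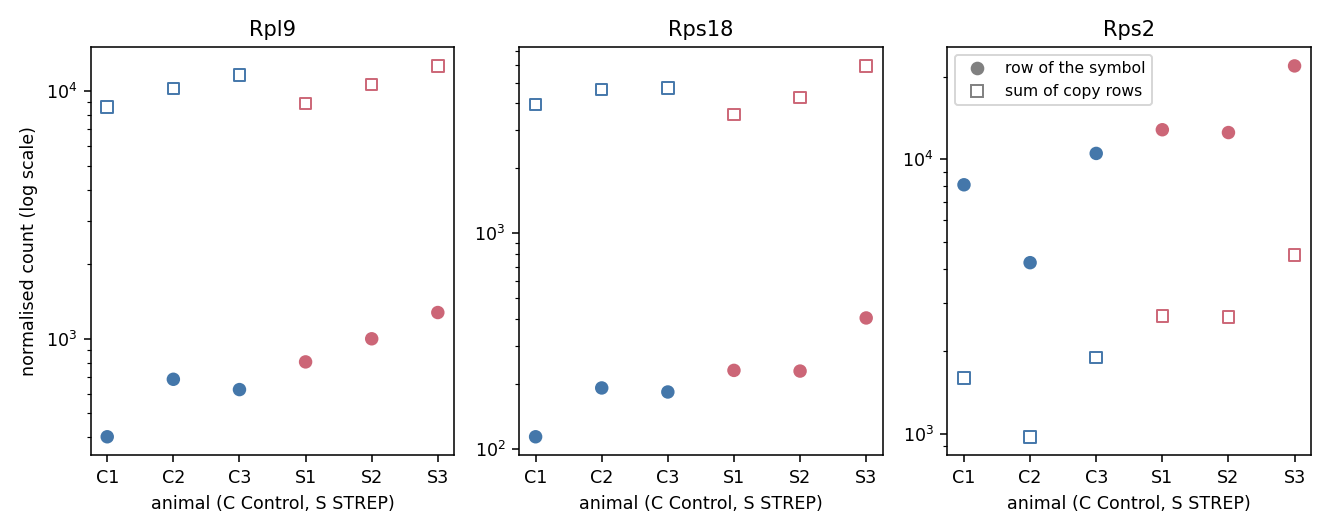
Normalised counts (log scale) of Rpl9, Rps18 and Rps2 in each animal, in the row of the symbol (filled circles) and summed over the rows of their copies (open squares), Control in blue and STREP in red. For Rpl9 and Rps18 the small row is higher in STREP while the large copy row overlaps between groups, and for Rps2 both are higher in STREP.

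Counting on copies touched more members than these. Copies were rows matched by a RefSeq name or by their symbol, so others may be missing. Of the members, 32 had a matched copy row with counts, and 10 held under 50% of their family's counts in their own row. Rps20, of the small subunit, kept 14.4%, Rpl37 11.6% and Rps29 0.012%. Rpl7a, Rpl8 and Rpl35a each had another row with identical counts in all 6 libraries. Rpl39 was listed at 0 in every library while its copy rows held 199 to 366 normalised counts in Control and 337 to 455 in STREP. Rps6, Rpl38 and Rpl30l1 were also listed at 0 in all 6 libraries, and Rps29 had a single count, in the STREP female. Rps6 and Rpl38 are parts of every cytosolic ribosome, so a listed 0 says nothing of their mRNA. With the matched copy rows added to their parents, 0 of 77 members passed the adjusted p, against 3.71% of 16214 genes. Of these members, 1 had an unadjusted p under 0.05, against 12.2% of all genes. The median log2 fold change was 0.14.

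Among the stalk and surface proteins, none passed the test. Rplp0 had 33863, 49059 and 48427 normalised counts in Control and 39496, 35646 and 64096 in STREP, a log2 fold change of 0.08 ± 0.23. Rplp2, its partner in the stalk, stood at 0.15 ± 0.37. Rpsa, which also serves as a laminin receptor, stood at 0.11 ± 0.18, with 6473 to 8630 normalised counts in Control and 6766 to 9821 in STREP. Rpl4, Rpl10 and Rpl3, the other most counted members besides Rpl7, stood at 0.20 ± 0.22, 0.19 ± 0.23 and 0.12 ± 0.21. The groups overlapped for each.

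Among paralogs and like-named relatives of other members, none passed the test, and neither did their parents. Most with at least 10 normalised counts lay near their parents, whereas Rps18l1 stood at 0.05 beside 0.82 for Rps18. Rpl22l1, which stands in for Rpl22, had 748 to 770 normalised counts in Control and 720 to 1094 in STREP (log2 fold change 0.20 ± 0.20), next to 0.19 ± 0.24 for Rpl22. Rps27l, a p53-responsive relative of Rps27, stood at 0.10 ± 0.18 and Rps4y2 at 0.25 ± 0.24. Parents Rps27, Rpl7 and Rps4x stood at 0.00, 0.05 and 0.04. Rps10l1, also counted here as a copy of Rps10, stood at 0.06 ± 0.21 beside 0.15 ± 0.36 for Rps10. Rps9l1, which had no parent among the members, stood at 0.14 ± 0.19. Rpl30, whose relative Rpl30l1 was listed at 0, stood at 0.16 ± 0.19. Rpl3l, the paralog of Rpl3 in heart and skeletal muscle, and Rpl39l, best known from testis, reached at most 11.9 normalised counts in any library. Rpl10l, another paralog best known from testis, had 22.7 to 65.4 in Control and 50.6 to 65.8 in STREP. The groups overlapped for Rpl22l1, Rpl10l and each of the other paralogs named here.

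The members also varied together from animal to animal. STREP replicate 3, a female, was the highest of the 6 libraries for 71 of 76 members. The median deviation of the members from their own mean over 6 animals, on the log2 scale, was -0.26, -0.08 and 0.20 in Control and -0.16, -0.24 and 0.54 in STREP. All 4 males were below 0 and both females above it. Both females were the 2 highest animals for 62 of 76 members, where 7.57% of all genes with at least 10 normalised counts showed that order. Both subunits did so, with medians of 0.57 for the large and 0.52 for the small subunit in the STREP female.

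**Figure D3:**
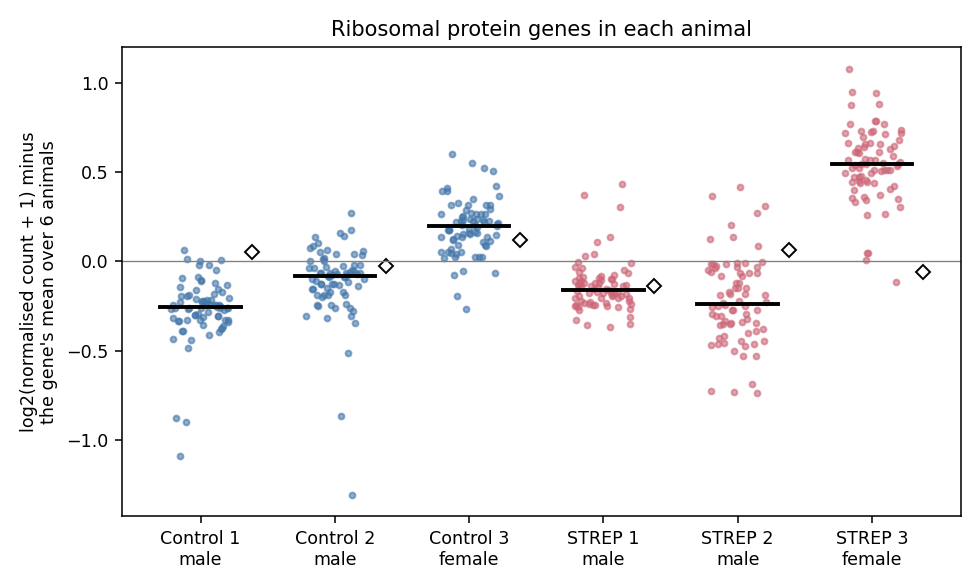
Log2(normalised count + 1) of each of the 76 ribosomal protein genes minus its mean over the 6 animals, by animal, with the median as a bar, and the median of the 72 mitochondrial ribosomal protein genes as an open diamond. The bars of both females, at 0.20 and 0.54, are above those of all 4 males, and the diamond of the STREP female is at -0.06.

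Females were higher than males in the sex term of a DESeq2 model of group and sex, a test added after these values had been seen. Of 50 members tested, 32 rose in females relative to males, 21 of the large and 11 of the small subunit, against 3.29% of all genes tested, and all 76 members were above 0. The median female-minus-male log2 difference was 0.56 for the members and -0.01 for all genes. Rpl37a had the lowest adjusted p, at a difference of 0.70 ± 0.13 (DESeq2 adjusted p = 7.62e-05), with 5951 and 6319 normalised counts in Control males, 8908 in the Control female, 5837 and 5442 in STREP males and 10244 in the STREP female. Both females were above all 4 males. Rps15a, of the small subunit, stood at 0.66 ± 0.14 (DESeq2 adjusted p = 0.000368). Differences ran up to 1.08 for Rpl36, which independent filtering left untested. The smallest were those of the paralogs Rps27l (0.05) and Rpl7l1 (0.10), followed by Rps4y2 and Rpl22 (0.12 each), genes singled out after their values were seen.

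These calls depended on the tool, the scaling and single animals. Without independent filtering, 22 of 79 members passed, against 0.364% of 18705 genes. With edgeR, 0 of 76 passed, against 0.0067% of 14928 genes, though 60 had an unadjusted p under 0.05, against 7.37% of all genes, and the median was 0.55. With library totals as size factors, the median of all genes moved to -0.29 and that of the members to 0.26, and 1 of 71 members passed, against 0.0453% of all genes tested. Without the STREP female, 0 of 76 members passed, against 0.0814% of all genes tested, with 17 at an unadjusted p under 0.05 (5.14% of all genes) and a median of 0.34. Without Control replicate 1, 10 of 76 members passed (48 of 15010 genes), and without STREP replicate 2, 10 of 77 (36 of 16130 genes). Without STREP replicate 1, 16 of 40 members passed (81 of 1989 genes). Without Control replicates 3 and 2, it was 40 of 51 (331 of 4741 genes) and 44 of 50 (281 of 4050 genes). With 1 female per group, sex and the individual animal cannot be told apart.

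**Figure D4:**
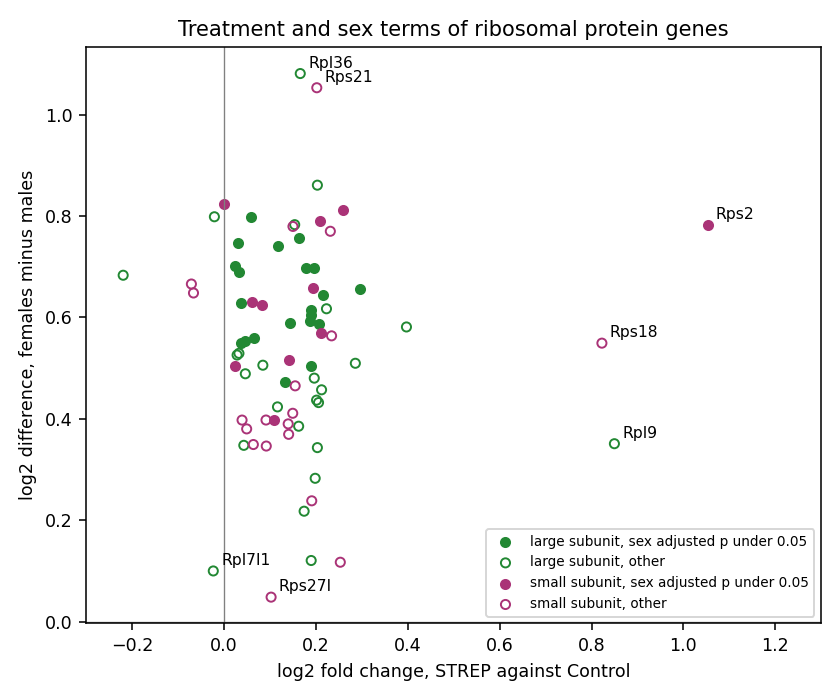
Log2 difference between females and males (vertical axis) against the log2 fold change of STREP over Control (horizontal axis) for the 76 ribosomal protein genes, coloured by subunit and filled where the sex term had an adjusted p under 0.05. All points lie above 0 on the vertical axis, with Rps27l and Rpl7l1 lowest, and Rps2, Rpl9 and Rps18 stand apart to the right.

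The treatment difference was also read within each sex, which leaves 1 animal a side for females. Between the single STREP and single Control female, 72 of 76 members were higher in STREP, with a median log2 difference of 0.38 (0.01 over all genes). Between males, 47 of 76 were lower in STREP, with a median of -0.04 (-0.01 over all genes). The interaction of sex and group, fitted in DESeq2, passed the adjusted p for 0 of 75 members, against 0.259% of 13134 genes, so a different response of the sexes was not shown. At an unadjusted p under 0.05 there were 9, against 5.54% of all genes, and edgeR was not run for this term. Without the STREP female, the median log2 fold change of the members was -0.15, and 13 of 76 were above 0. That fit kept the Control female, so sex and treatment are mixed in it. Fitted in males alone, the median was -0.04, and 30 of 76 were above 0.

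**Figure D5:**
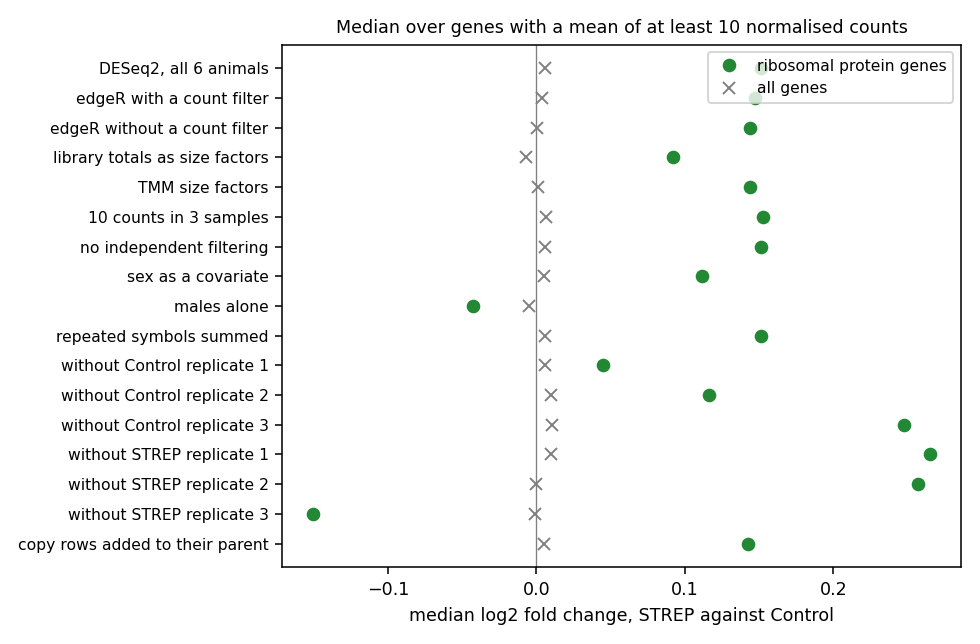
Median log2 fold change, STREP against Control, of the ribosomal protein genes (circles) and of all genes (crosses) with at least 10 normalised counts under each way of fitting the data, listed on the vertical axis. The circles lie between -0.15 without STREP replicate 3 and 0.27 without STREP replicate 1, while the crosses stay near 0.

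Marker lists of cell types and mitochondrial reads were set beside these values. The supporting cell list (6 of 6 detected) summed to 408427 to 504840 normalised counts in Control and 514467 in STREP replicate 2 to 863221 in the STREP female, but most of that sum was Otog, a matrix gene, with 334982 to 410468 in Control and 452182, 425663 and 729507 in STREP. Otogl was level across STREP (14222, 14570 and 14763) and above Control (12169 to 12937). Sox2 was highest in both females (360 and 399, against 220 to 292 in males), as was Gjb2 (41288 and 63353, against 27608 to 36587). Tectb was highest in the female of each group (16093 and 22591). Slc1a3 was highest in the STREP female (32608) but not in the Control female (23840). In the sex term, 1 of 5 tested passed (Gjb2, 0.67, DESeq2 adjusted p = 0.00916), against 3.29% of all genes tested.

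Dark cell markers (4 of 4 detected) summed to 26510 to 27017 in Control and 15646 to 20756 in STREP, without overlap and lowest in the STREP female. Most of that sum was Slc12a2, with 20720 to 23399 in Control and 12833 to 16045 in STREP. It fell by -0.55 ± 0.14 on the log2 scale (DESeq2 adjusted p = 0.0035). It was the 1 of 4 dark cell markers past the adjusted p, against 3.72% of 16250 genes, and edgeR passed 0 of the 4. The groups overlapped for Kcne1, Kcnq1 and Bsnd, and Bsnd stood at a log2 fold change of 0.05 ± 0.19. Melanocyte markers (4 of 5 in the table) summed to 25276 to 26078 in Control and 25708 to 38349 in STREP, highest in the STREP female. Most of that sum was Pmel, with 24808 to 25724 in Control and 25389 to 38126 in STREP. Tyr, Tyrp1 and Mlana went the other way, at log2 fold changes of -1.06 ± 0.44, -1.25 ± 0.67 and -0.96 ± 0.37. None of the melanocyte markers passed the adjusted p in DESeq2, and Tyr and Mlana were lowest in the STREP female. Stroma markers (5 of 5) were lowest in the female of each group, at 10058 and 7960, against 8487 to 14842 in males. Blood markers (4 of 6 in the table, Ppbp at 0) summed to 4530 in the Control female and 6283 in the STREP female, against 6345 to 14820 in males.

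The Schwann cell list (5 of 5) was at 219441 to 301643 in Control and 113361 to 241822 in STREP, and that of neurons (6 of 6) at 8413 to 9504 and 8003 to 9150. Macrophage markers (6 of 6) summed to 3261 to 4732 and 4295 to 5104, and those of skeletal muscle (5 of 5) to 56.5 to 495 and 298 to 549. The groups overlapped for these 4 lists of Schwann cells, neurons, macrophages and muscle. Mitochondrially encoded genes took 7.01% and 7.70% of the counts in the females and 4.82% to 6.74% in the males. The part of these in the members' values was not tested.

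Mitochondrial ribosomal proteins, which build the separate ribosome inside mitochondria, served as a comparison family. Of 75 such genes by name, 72 had at least 10 normalised counts, with a median female-minus-male log2 difference of 0.03 and 42 above 0. Of 10 tested for sex with DESeq2, 0 passed, nor did any with edgeR. In DESeq2, 1 of the 72 had an unadjusted p under 0.05, against 16.2% of the 3734 genes tested. The 72 include genes that independent filtering left untested. Their median log2 fold change under streptomycin was -0.11, 23 of 72 above 0, and 0 passed with either tool. In DESeq2, 3 had an unadjusted p under 0.05, against 12.2% of all genes.

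Genes that work with ribosomal proteins were read from lists. Other mRNAs known for a TOP start, such as those of elongation factors, gave 0 of 15 past the adjusted p under streptomycin with DESeq2 or edgeR, 0 at an unadjusted p under 0.05, and a median log2 fold change of 0.15, as for the members. In the sex term, 4 of 14 tested rose in females (Eif2s3, Eef1a1, Eef1g and Tpt1), against 3.29% of all genes tested, with a median of 0.31 over the list. Without independent filtering, with edgeR, with library totals or without the STREP female, Eif2s3 was the single one of 15 that passed. Over all genes tested, these settings called 0.364%, 0.0067%, 0.0453% and 0.0814% higher in females. In edgeR, Eif2s3 was the 1 gene of 14928 called higher in females. It had 3802 to 4377 normalised counts in males, and 6812 and 10085 in the Control and STREP females. Why it differed was not tested, and 1 gene does not speak for the TOP list.

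Genes of ribosome assembly and rRNA synthesis gave 0 of 37 past the adjusted p with DESeq2 or edgeR, and a median of 0.02. In DESeq2, 4 had an unadjusted p under 0.05, against 12.2% of all genes. Of the genes that control translation of ribosomal protein mRNAs, 1 of 12 rose, where 3.72% of 16250 genes passed the adjusted p in either direction. Eif4ebp1, the cap-binding inhibitor that mTOR phosphorylates, had 354, 410 and 445 normalised counts in Control and 684, 613 and 580 in STREP. The groups did not overlap, and the rise was 0.64 ± 0.20 on the log2 scale (DESeq2 adjusted p = 0.0398). However, edgeR passed 0 of the 12, against 1.8% of 14928 genes. Among genes that sense or rescue stalled ribosomes, 1 of 12 rose, against the same 3.72%. Gtpbp2, a GTPase that acts with Pelo on stalled ribosomes, had 329, 340 and 276 normalised counts in Control and 1144, 1069 and 959 in STREP, a rise of 1.75 ± 0.19 on the log2 scale (DESeq2 adjusted p = 9.30e-18), and edgeR passed it as well. In both genes all STREP animals were above all Control animals, and neither had the STREP female as its highest value.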

How the data were processed

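Gene rows held expected counts per gene, which the authors deposited as whole numbers. Per the labels, reads were aligned with STAR 2.5.3a and quantified with RSEM 1.3.0 (submitters' processing notes), on rat Rnor6.0 and its Ensembl annotation according to the study's methods. RSEM divides reads that match several rows between them by estimation, which bears on every gene with copies. Groups came from the sample titles. Replicates were numbered in the order of the labels.

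Counts were fitted in R 4.3.3 with DESeq2 1.42.0 over all 32883 rows, of which 18705 had a count, with group as the single term, and called at an adjusted p under 0.05 and a fold change over 1.5, the thresholds of the study. Fits with edgeR 4.0.16, other scaling, other filters, sex as a covariate, males alone, repeated symbols summed and each animal left out were alternatives. The sum over copies, matched by RefSeq names or symbols, and the tests of sex were chosen once results of these data were known. The fits were tested on simulated data.

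The members and lists were chosen with earlier results of these data known. Genes were named if they passed the adjusted p, were among the 5 highest or 5 lowest fold changes at 100 or more normalised counts or the 5 most or least counted, belonged to the stalk or Rpsa, or were paralogs with their parents; Rpl37a, Rps15a and the members discussed for their copies were added for their values. Medians used genes with at least 10 normalised counts and per-animal deviations a pseudocount of 1. A 0 allows up to 3 counts in a library, which is 1.84 to 4.49 normalised counts and covers counting error only.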

Additional observations from a re-analysis of the deposited data

How the results depend on the processing

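The number of members past the adjusted p was 1 and depended on the processing. It was 0 with edgeR, with or without a count filter, and with copy rows added, 2 with sex as a covariate, and 0 to 2 with each animal left out, and the members also past the fold change numbered the same. It was 0 without Control replicate 1, STREP replicate 2 or STREP replicate 3. The 527 genes called in all became 264 with edgeR and a count filter, 295 without the filter and 309 with library totals as size factors. The members' median log2 fold change ranged from -0.15 without STREP replicate 3 to 0.27 without STREP replicate 1. The 32 members higher in females became 0 with edgeR, 1 with library totals, and 0 to 44 with an animal left out. The counts were 10 of 76 tested without Control replicate 1, 44 of 50 without Control replicate 2 and 16 of 40 without STREP replicate 1. They were 10 of 77 without STREP replicate 2 and 0 of 76 without STREP replicate 3. The counts or shares over all genes are given above.

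Rpl9 lost its call with edgeR (0.85 with a count filter, 0.84 without), library totals (0.83), males alone (0.73) and copy rows added (0.13), and without Control replicate 1, Control replicate 3, STREP replicate 2 or STREP replicate 3. Rps2 gained a call with library totals (0.98), sex as a covariate and males alone (1.05 each), and without Control replicate 3 (1.36) or STREP replicate 1 (1.18). Members near 0 changed sign among males alone, to -0.16 for Rpl7, -0.14 for Rplp0, -0.072 for Rplp2, -0.14 for Rps18l1, -0.055 for Rps4x, -0.048 for Rpl10, -0.12 for Rpl3, -0.079 for Rpl4, -0.035 for Rps10l1 and -0.057 for Rps9l1. Rpl7 stood at -0.0087 with library totals, and Rps27 at 0.00015 with the filter of 10 counts in 3 samples, and Rps20 at 0.095 with copy rows added. With an animal left out, the log2 fold change ran from -0.45 to 0.076 for Rpl35a, -0.24 to 0.17 for Rpl7, -0.062 to 0.027 for Rpl7l1, -0.22 to 0.24 for Rplp0, -0.27 to 0.38 for Rplp2, -0.18 to 0.20 for Rps18l1, -0.47 to 0.28 for Rps27, -0.15 to 0.16 for Rps4x, -0.061 to 0.23 for Rpsa, -0.16 to 0.35 for Rpl10, -0.011 to 0.43 for Rpl23, -0.018 to 0.49 for Rpl23a, -0.16 to 0.26 for Rpl3, -0.36 to 0.28 for Rpl34, -0.12 to 0.36 for Rpl4, -0.19 to 0.43 for Rps10, -0.11 to 0.20 for Rps10l1, -0.36 to 0.14 for Rps20, -0.43 to 0.094 for Rps28 and -0.10 to 0.28 for Rps9l1. The cause was not tested, except that the sum over copies holds reads of other rows by construction. No paired analysis was possible because the labels carry no replicate numbers shared between groups. For the members at 0 or under 10 normalised counts no difference could be read from their own rows.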
